A study of Mus musculus with 10 samples.

Results

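Dorsal root ganglia (DRG) of mouse embryos at E18.5 were examined for 9 transcription factors that are used in the field to follow mechanoreceptor, proprioceptor and nociceptor fate: *Maf*, *Mafa*, *Shox2*, *Runx1*, *Runx3*, *Cbfb*, *Etv1*, *Etv4* and *Etv5*. They were taken by Ensembl identifier, and all 9 were found among the 55414 genes counted in each library. The data are bulk RNA-sequencing of whole DRG, which hold neurons, glia and other cells of the ganglion, from 5 control and 5 *WD1* cKO embryos. The comparison asks which genes depend on the early expression of *Dach1*, a transcriptional cofactor of the retinal determination network. In *WD1* cKO embryos (*Wnt1* Cre/+ with *Dach1* flox/flox), Cre comes from a *Wnt1* transgene active in the neural crest, the origin of both the neurons and the glia of the DRG. Controls were littermates from a colony that carries the same *Dach1* flox/flox alleles on a mixed C57Bl/6J and CD1 background. Titles set the group of each library, because the labels' genotype entries name the opposite genotype.

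Large Maf proteins (*Maf*, *Mafa*) are basic leucine zipper factors needed for rapidly adapting touch receptors, and *Shox2* is a homeodomain factor that favours TrkB-expressing mechanoreceptors. Runx proteins bind DNA together with the partner subunit encoded by *Cbfb*. *Runx1* drives the non-peptidergic nociceptor programme, whereas *Runx3* maintains TrkC and represses TrkB in proprioceptors. *Etv1*, *Etv4* and *Etv5* form the PEA3 group of ETS factors, which neurotrophin signalling from the periphery can induce, and *Etv1* is needed for proprioceptor afferents to reach their targets.

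Promoter sequences are shown for *Shox2*, which the study picked from these libraries and which had the smallest unadjusted p-value of the factors in edgeR. They are also shown for *Runx1* and *Runx3*, which mark opposed fates and whose windows share a run of bases. RefSeq windows on GRCm38.p6, from 250 bases before to 50 bases after the annotated start, were at hand for 6 of the 9 factors, 10 windows in all, and each is written 5′ to 3′ on the strand of its gene. For *Runx1* and *Runx3* the upstream window is printed. Capitals mark the ETS letters GGAAGT in *Shox2* and the Runx letters TGTGGT, which read ACCACA on the other strand, in *Runx1* and *Runx3*.
Shox2, chr3:66981722-66982021, minus strand: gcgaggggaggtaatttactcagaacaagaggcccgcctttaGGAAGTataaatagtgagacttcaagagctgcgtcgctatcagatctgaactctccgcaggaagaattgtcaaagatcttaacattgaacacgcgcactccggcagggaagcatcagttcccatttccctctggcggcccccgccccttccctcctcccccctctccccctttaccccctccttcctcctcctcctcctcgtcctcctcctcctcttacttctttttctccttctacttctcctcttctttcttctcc
Runx3, chr4:135120395-135120694, plus strand: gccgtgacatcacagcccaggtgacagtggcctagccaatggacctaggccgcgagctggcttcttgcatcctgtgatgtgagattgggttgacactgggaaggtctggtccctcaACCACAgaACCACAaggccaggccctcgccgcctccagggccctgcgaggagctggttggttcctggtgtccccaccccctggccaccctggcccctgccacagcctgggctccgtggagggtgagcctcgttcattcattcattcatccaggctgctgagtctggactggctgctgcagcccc
Runx1, chr16:92826025-92826324, minus strand: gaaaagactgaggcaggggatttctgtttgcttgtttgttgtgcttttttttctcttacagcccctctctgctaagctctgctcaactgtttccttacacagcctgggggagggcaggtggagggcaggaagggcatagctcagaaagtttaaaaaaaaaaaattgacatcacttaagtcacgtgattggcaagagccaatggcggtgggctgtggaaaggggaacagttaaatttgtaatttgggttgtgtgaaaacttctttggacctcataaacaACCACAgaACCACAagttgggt
Both strands were searched for 3 short motifs, none of which contains another. The Runx letters TGTGGT were present in 3 of the 10 windows and in 16.8% of 32851 windows of the same length. The ETS letters GGAAGT were present in 4 of the 10 windows and in 23.8% of all windows. The Maf letters TGCTGAC were present in 1 of the 10 windows, one of *Etv1*, and in 4.67% of all windows. The windows of *Runx1* and *Runx3* shared the 18 bases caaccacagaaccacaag, which hold the Runx letters 2 times. This run began at position 27 in *Runx1* and at position -136 in *Runx3*, with the annotated start as position 1. It was present in 4 of all windows, the others being those of *Runx2* and of *Gm16225*, whose window lies over that of *Runx3* on the opposite strand. These are matches of letters and not tests of binding.

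Control libraries held 20465132 to 27528784 assigned reads, and *WD1* cKO libraries 19757596 to 34796562. *Dach1*, the targeted gene, was at 37.9 ± 2.40 CPM (counts scaled to library size; SD, n = 5) in control and 20.0 ± 0.677 CPM (SD, n = 5) in *WD1* cKO embryos, and every library followed its title. Only part of *Dach1* is floxed, and the study found Dach1 staining extinguished in *WD1* cKO ganglia by E18.5. The RNA level is therefore no measure of the remaining protein. All 6 sensory neuron markers and all 6 glial markers were present, with summed levels of 5550 to 6020 and 790 to 933 CPM in control and of 5620 to 5850 and 787 to 975 CPM in *WD1* cKO embryos. The summed level of 6 macrophage markers was 74.5 to 88.6 CPM in control and 71.2 to 86.5 CPM in *WD1* cKO embryos. One library stood apart: 8 spinal cord markers summed to 19.0 CPM in control replicate 3 and to between 0.11 and 1.52 CPM in the other 9 libraries. Summed levels of 6 erythroid markers lay between 149 and 2390 CPM in control, highest in replicate 1, and between 174 and 1050 CPM in *WD1* cKO embryos. All 6 had a log2 fold change below 0, but all 6 intervals at 95% crossed 0 (edgeR p-values 0.059 to 0.459). Without control replicate 3 the median log2 fold change of the 9 factors was 0.035, and without control replicate 1 it was 0.048, beside 0.055 with all libraries.

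In *WD1* cKO embryos *Shox2* was 23.1% higher, *Mafa* 26.3% higher and *Etv4* 11.8% lower in fitted level, and these were the 3 factors with an unadjusted p-value under 0.05. The other 6 factors differed by at most 0.16 on the log2 scale. After adjustment over the 17490 genes tested, 0 of the 9 factors stayed below 0.05, be it by the quasi-likelihood test of edgeR or by DESeq2's Wald test, against 7 genes in edgeR over the whole table (0.0400%). Without adjustment, 3 of 9 factors and 4.50% of all genes had a p-value under 0.05 in edgeR. The study's cut-off (p below 0.005 before adjustment and log2 fold change beyond 0.15 in either direction) was passed by 1 factor, *Shox2*, and by 0.383% of all genes tested, or 0.206% counting higher genes alone. The study picked *Shox2* from these libraries by this cut-off, so its passing is no independent evidence. The 3 factors with an unadjusted p-value under 0.05 include it. Apart from these libraries, the study stained E18.5 ganglia and found Shox2 protein in a larger proportion of TrkB neurons in both of its *Dach1* knockout lines. Its in situ hybridization counted no more *Shox2*-expressing cells in *WD1* cKO ganglia than in control. From counts of whole ganglia alone, fewer cells of a type and less RNA per cell cannot be told apart.

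**Figure D1:**
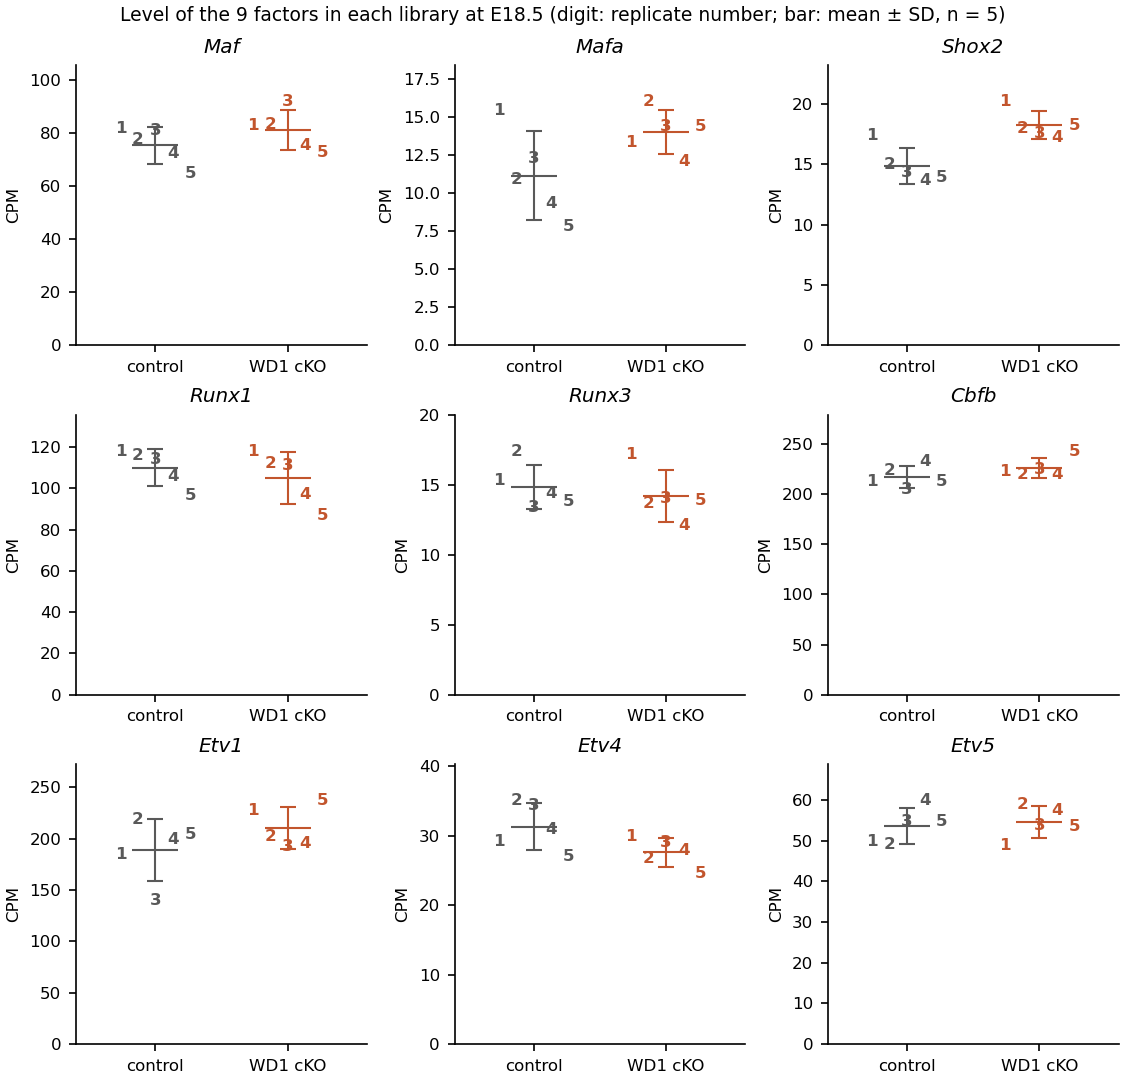
Level of each of the 9 factors in CPM (vertical axes start at 0) in control and *WD1* cKO libraries at E18.5. Each digit is the library with that replicate number, and the bars give the mean ± SD (n = 5). For *Shox2* 4 of the 5 *WD1* cKO libraries lie above all controls, and for *Etv1* control replicate 3 lies lowest, at 140 CPM.

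*Maf* (ENSMUSG00000055435, chromosome 8) was at 81.7, 77.8, 80.9, 72.3 and 64.9 CPM in control replicates 1 to 5. In *WD1* cKO replicates 1 to 5 it was at 83.0, 83.2, 91.9, 75.4 and 72.7 CPM. The groups overlapped, with 3 *WD1* cKO libraries above all controls, and within each group the libraries numbered 4 and 5 were the lowest. The log2 fold change was 0.11 (95% interval -0.05 to 0.27), and edgeR gave a p-value of 0.173, or 1.00 after adjustment. *Gm15655*, which overlaps *Maf* on the opposite strand, had 0 counts in every library.

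*Mafa* (ENSMUSG00000047591, chr15:75617339-75620077 in GRCm39) was counted from 178 to 499 times per library. It was at 15.4, 10.9, 12.3, 9.31 and 7.83 CPM in control replicates 1 to 5, and at 13.3, 16.0, 14.4, 12.1 and 14.4 CPM in *WD1* cKO replicates 1 to 5. The control libraries varied more, with a coefficient of variation of 26.1% against 10.4%, and 1 *WD1* cKO library lay above all controls. The log2 fold change was 0.34 (standard error 0.151, 95% interval 0.01 to 0.67), and edgeR gave a p-value of 0.0452, or 1.00 after adjustment. Control replicate 1, the highest control for *Mafa*, was also the library with the highest erythroid sum, and control replicates 4 and 5, the lowest for *Mafa*, had the lowest erythroid sums of the controls, 149 and 176 CPM. Control replicates 2 and 3, with *Mafa* at 10.9 and 12.3 CPM, had erythroid sums of 1650 and 988 CPM. In *WD1* cKO replicates 1 and 5 *Mafa* was at 13.3 and 14.4 CPM. Their erythroid sums were 1050 and 174 CPM, the highest and lowest of that group. The part of blood in the *Mafa* values was not tested. Without control replicate 1, the highest control, the log2 fold change was 0.48, and edgeR's p-value of 0.00268 (1.00 after adjustment) passed the study's cut-off. Over all fits with 1 library left out, the log2 fold change ranged from 0.24 to 0.48 and edgeR's p-value from 0.00268 to 0.104.

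*Shox2* (ENSMUSG00000027833, chr3:66879060-66889104 in GRCm39), whose promoter window is printed above, was counted from 303 to 632 times per library. Control replicates 1 to 5 were at 17.4, 15.0, 14.3, 13.7 and 13.9 CPM. *WD1* cKO replicates 1 to 5 were at 20.2, 18.0, 17.6, 17.2 and 18.2 CPM. The groups touched in 1 pair only: *WD1* cKO replicate 4 lay 1 rank below control replicate 1. The log2 fold change was 0.30 (95% interval 0.14 to 0.46), and edgeR gave a p-value of 0.00143, or 0.784 after adjustment. Without control replicate 3 it was 0.29, without control replicate 1, the highest control, it was 0.36, and over the 17 alternative fits the adjusted p-value was 0.146 or higher. The study picked *Shox2* from these libraries.

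Exons of *Shox2* overlap *Rsrc1*, a gene for a splicing-related protein on the opposite strand, and the strand setting of the counting is not given in the sources used here. *Rsrc1* was at 52.4 ± 2.56 CPM (SD, n = 5) in control and 53.6 ± 1.59 CPM (SD, n = 5) in *WD1* cKO embryos, and its log2 fold change was 0.03 (95% interval -0.05 to 0.12). Deviations of *Rsrc1* from its group means nonetheless followed those of *Shox2* across the 10 libraries (Pearson's r = 0.925), the fourth highest correlation among 10774 genes, and r was 0.698 without the 2 libraries farthest from the median of *Shox2*. The share of *Shox2* counts that could come from *Rsrc1* transcripts was not tested.

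*Runx1* (ENSMUSG00000022952, chr16:92398354-92623037 in GRCm39) was at 118, 116, 114, 106 and 96.6 CPM in control replicates 1 to 5. In *WD1* cKO replicates 1 to 5 it was at 118, 112, 111, 96.8 and 86.9 CPM. The groups overlapped, and as for *Maf* the libraries numbered 4 and 5 were the lowest of both groups. The log2 fold change was -0.07 (95% interval -0.25 to 0.11, edgeR p-value 0.424, adjusted 1.00). *Gm26626*, which overlaps *Runx1* on the opposite strand, was counted from 2 to 10 times per library.

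*Runx3* (ENSMUSG00000070691, chromosome 4) was at 15.3, 17.4, 13.4, 14.4 and 13.8 CPM in control replicates 1 to 5 and at 17.2, 13.7, 14.0, 12.1 and 13.9 CPM in *WD1* cKO replicates 1 to 5. Both groups covered nearly the same range. The log2 fold change was -0.06 (95% interval -0.27 to 0.14, edgeR p-value 0.512, adjusted 1.00). *Cbfb* (ENSMUSG00000031885, chromosome 8), the partner of both Runx proteins, was the steadiest of the 9 factors, with coefficients of variation of 4.88% in control and 4.18% in *WD1* cKO embryos. It was at 213, 224, 205, 233 and 213 CPM in control and at 223, 220, 225, 220 and 243 CPM in *WD1* cKO replicates 1 to 5, a log2 fold change of 0.06 (95% interval -0.04 to 0.15, edgeR p-value 0.209, adjusted 1.00). Without control replicate 3, the lowest library for *Cbfb*, the log2 fold change was 0.03.

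*Etv1* (ENSMUSG00000004151, chr12:38829379-38920483 in GRCm39) was at 185, 219, 140, 199 and 204 CPM in control replicates 1 to 5 and at 228, 202, 192, 195 and 237 CPM in *WD1* cKO replicates 1 to 5. The lowest value was that of control replicate 3, the library with spinal cord transcripts. With all libraries the log2 fold change was 0.16 (95% interval -0.07 to 0.38, edgeR p-value 0.162, adjusted 1.00), and without control replicate 3 it was 0.06 (edgeR p-value 0.381, adjusted 1.00). Control replicate 3 was the lowest of the 10 libraries for 13 of the 49 tested genes among the 9 factors and the receptor, nociceptor and mechanoreceptor lists below. The share of all tested genes that were lowest in this library was not computed, so whether the count is particular to these lists was not tested. The 13 genes were *Etv1* and *Cbfb* of the factors, *Ntrk3*, *Gfra1*, *Bdnf*, *Ntf3* and *Spred1* of the receptors, ligands and inhibitors, *Trpm8* and *Tac1* of the nociceptor genes, and *Pvalb*, *Calb1*, *Piezo2* and *Nefh* of the mechanoreceptor and proprioceptor genes. For example, *Ntf3* was at 4.28 CPM there and at 8.79 to 14.6 CPM in the other libraries. What part the makeup of this sample has in these values was not tested.

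*Etv4* (ENSMUSG00000017724, chr11:101660568-101676197 in GRCm39) was at 29.2, 35.0, 34.3, 30.9 and 27.0 CPM in control replicates 1 to 5 and at 29.9, 26.7, 29.0, 27.8 and 24.6 CPM in *WD1* cKO replicates 1 to 5. The groups overlapped, with 2 *WD1* cKO libraries below all controls. The log2 fold change was -0.18 (95% interval -0.35 to -0.02), and edgeR gave a p-value of 0.0348, or 1.00 after adjustment. Without control replicate 3 it was -0.15, and edgeR gave a p-value of 0.0880, or 1.00 after adjustment. *Etv5* (ENSMUSG00000013089, chromosome 16) was at 49.7, 49.1, 54.7, 59.8 and 54.8 CPM in control and at 48.9, 59.0, 53.7, 57.4 and 53.4 CPM in *WD1* cKO replicates 1 to 5. Its log2 fold change was 0.02 (95% interval -0.12 to 0.16, edgeR p-value 0.738, adjusted 1.00), and the groups covered nearly the same range.

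Seen together, 6 of the 9 factors had a log2 fold change above 0, as had 50.1% of all genes tested. The median log2 fold change of the 9 factors was 0.055, beside 0.0002 over all genes, and their median absolute log2 fold change was 0.106, beside 0.0527. *Shox2*, which the study picked from these libraries, is among the 9. In no factor did the 2 groups separate completely, which 1.06% of all genes did.

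**Figure D2:**
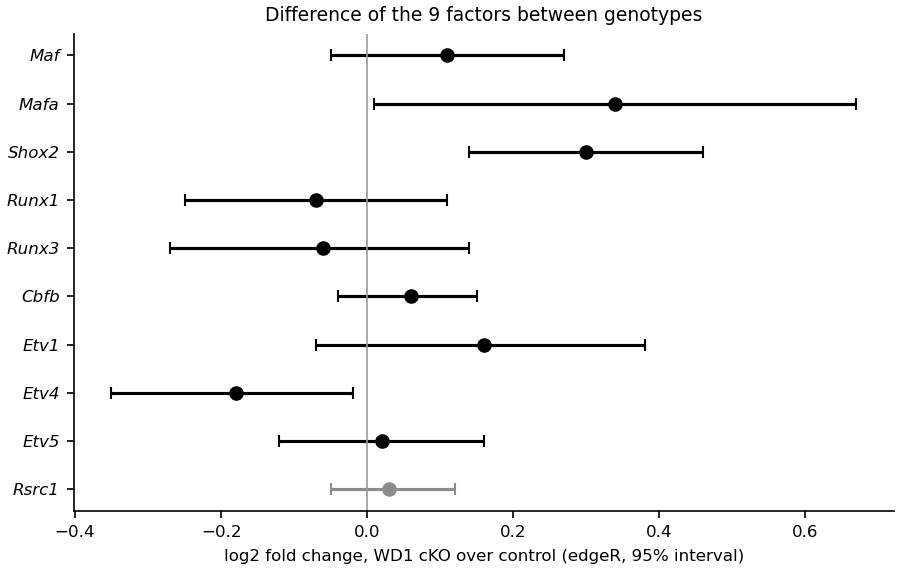
Log2 fold change of *WD1* cKO over control with its 95% interval from edgeR for the 9 factors (black) and for *Rsrc1* (grey), which overlaps *Shox2* on the opposite strand. Intervals of *Mafa*, *Shox2* and *Etv4* do not cross 0, and that of *Mafa*, 0.01 to 0.67, is the widest.

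Levels were ordered per kilobase of exon, with exon lengths from the GENCODE annotation of GRCm38. In control embryos *Cbfb* came first at 62.6 ± 3.05 CPM per kb (SD, n = 5), followed by *Etv1* at 14.2, *Etv5* at 13.1, *Etv4* at 10.1, *Maf* at 9.17, *Runx1* at 9.16, *Shox2* at 4.48, *Mafa* at 4.08 and *Runx3* at 2.97 CPM per kb. Ranges over the control libraries did not overlap between *Cbfb* and *Etv1*, between *Etv5* and *Etv4*, or between *Runx1* and *Shox2*, and the other neighbours in this order overlapped.

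Ratios between pairs of factors were taken within each library as a description, with no test. The log2 ratio of *Runx3* to *Runx1* averaged -2.89 in both groups, with control libraries between -3.09 and -2.74 and *WD1* cKO libraries between -3.02 and -2.64. The ratio of *Shox2* to *Runx3* was between -0.22 and 0.19 in control and between 0.23 and 0.50 in *WD1* cKO embryos, so that all 5 *WD1* cKO libraries lay above all 5 controls. Mean levels in control and *WD1* cKO embryos were 14.8 and 18.2 CPM for *Shox2* and 14.9 and 14.2 CPM for *Runx3*. The log2 fold change was 0.30 for *Shox2*, which the study picked from these libraries, and -0.06 for *Runx3* (edgeR p-value 0.512). The share of all gene pairs whose ratio separates the groups was not computed. The log2 ratio of *Mafa* to *Maf* was between -3.05 and -2.41 in control and between -2.67 and -2.33 in *WD1* cKO embryos, and that of *Etv4* to *Etv5* was between -1.02 and -0.49 and between -1.14 and -0.71. In these 2 ratios the groups overlapped.

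**Figure D3:**
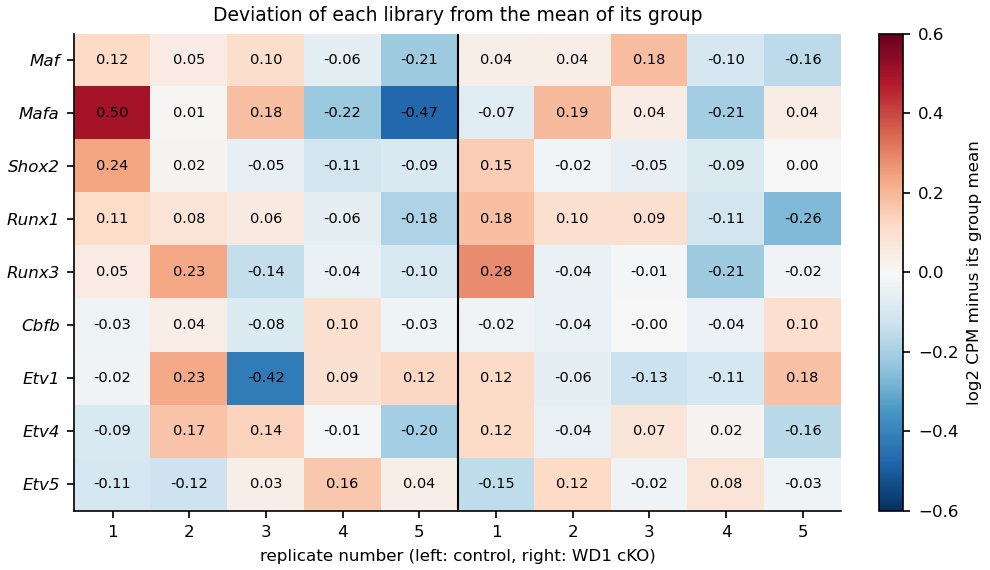
Deviation of each library from the mean of its group, in log2 CPM, for the 9 factors (rows) in control (left) and *WD1* cKO (right) libraries, with the value in each cell. The largest deviations are those of *Mafa* in control replicates 1 (0.50) and 5 (-0.47) and of *Etv1* in control replicate 3 (-0.42), while all values of *Cbfb* lie between -0.08 and 0.10.

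Receptors, ligands and inhibitors of the ERK pathway, which feed into the PEA3 and Runx factors, were examined next. Of 18 tested genes 1 was higher and 2 were lower in *WD1* cKO embryos with an unadjusted p-value under 0.05, and 0 after adjustment in edgeR. Of all genes 2.12% were higher and 2.38% lower at this threshold. The median log2 fold change of the list was 0.026. *Ntrk2* encodes the BDNF receptor TrkB, which marks the neurons that the study linked to genes lower in these *WD1* cKO libraries. The count of this list is therefore no independent evidence of a direction. *Ntrk2* was at 210, 206, 236, 215 and 207 CPM in control and at 208, 188, 194, 187 and 168 CPM in *WD1* cKO replicates 1 to 5. Its log2 fold change was -0.18 (95% interval -0.30 to -0.06), and edgeR gave a p-value of 0.00611, or 1.00 after adjustment. The other gene at the lower side was *Ngfr* (-0.09, edgeR p-value 0.0277, adjusted 1.00), the low-affinity neurotrophin receptor p75. *Gfra2*, the neurturin co-receptor, was at 96.4 ± 6.37 CPM (SD, n = 5) in control and 106 ± 4.48 CPM (SD, n = 5) in *WD1* cKO embryos (log2 fold change 0.14, edgeR p-value 0.0107, adjusted 1.00). *Ntrk3*, which encodes TrkC, was at 316 ± 25.1 and 312 ± 23.4 CPM (SD, n = 5 each).

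Genes of the non-peptidergic and other nociceptor programmes, many of them dependent on *Runx1*, showed 0 genes higher and 1 lower with an unadjusted p-value under 0.05 among 13 tested in edgeR, and 0 with an adjusted p-value under 0.05. Their median log2 fold change was -0.033, and 2.12% of all genes were higher and 2.38% lower at the unadjusted threshold. The gene at the lower side was *Slc17a8*, which encodes the vesicular glutamate transporter VGLUT3 of C-fibre mechanoreceptors. It was at 5.51, 7.45, 6.21, 5.34 and 5.89 CPM in control and at 5.60, 3.95, 4.54, 5.34 and 4.42 CPM in *WD1* cKO replicates 1 to 5, a log2 fold change of -0.36 (95% interval -0.62 to -0.09, edgeR p-value 0.0119, adjusted 1.00). The groups overlapped, with 3 *WD1* cKO libraries below all controls. The next genes of the list were *Tac1*, the substance P precursor, at 0.19 (edgeR p-value 0.133, adjusted 1.00), and *Th*, a C-LTMR marker, at -0.30 (edgeR p-value 0.147, adjusted 1.00).

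Among 9 mechanoreceptor and proprioceptor genes, 3 were higher and 1 was lower in *WD1* cKO embryos with an unadjusted p-value under 0.05, and the median log2 fold change was 0.063. At this threshold 2.12% of all genes were higher and 2.38% lower. *Calb2* and *Chodl* of this list were picked by the study from these libraries, so its count is no independent evidence of a direction. *Calb2*, which encodes calretinin, fell by 2.06 on the log2 scale (adjusted p = 4.83e-05 in edgeR) and was the only gene of the list with an adjusted p-value under 0.05. *Calb1*, the calbindin gene, was at 14.9, 13.1, 13.0, 14.7 and 14.1 CPM in control and at 16.3, 16.1, 15.2, 17.1 and 16.8 CPM in *WD1* cKO replicates 1 to 5. All 5 *WD1* cKO libraries lay above all controls, and the groups separated completely, in either direction, in 1.06% of all genes tested. The log2 fold change of *Calb1* was 0.22 (95% interval 0.09 to 0.35, edgeR p-value 0.00246, adjusted 0.930). *Chodl*, which encodes chondrolectin, passed the study's cut-off as well, at a log2 fold change of 0.31 (edgeR p-value 0.00235, adjusted 0.915). *Spp1* (0.43, edgeR p-value 0.0160, adjusted 1.00), the osteopontin gene, is named after its value was seen. *Pvalb*, a proprioceptor marker, was at 53.0 ± 9.38 CPM (SD, n = 5) in control and 59.0 ± 12.5 CPM (SD, n = 5) in *WD1* cKO embryos.

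**Figure D4:**
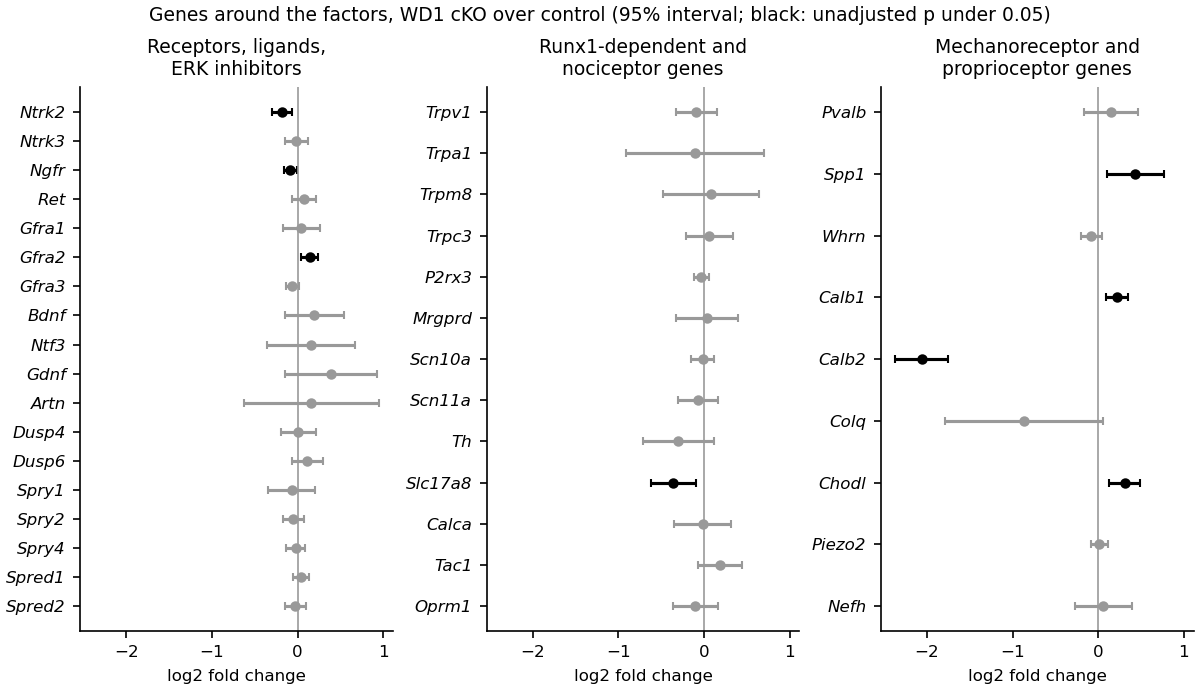
Log2 fold change of *WD1* cKO over control with its 95% interval from edgeR for the tested receptor, ligand and ERK inhibitor genes (left, 18 genes), nociceptor genes (centre, 13 genes) and mechanoreceptor and proprioceptor genes (right, 9 genes). Black points have an unadjusted p-value under 0.05, and *Calb2*, at -2.06, lies apart from all others.

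With 1 library left out at a time, the p-value of *Shox2* stayed under 0.05 in 10 of 10 edgeR fits, with log2 fold changes from 0.26 to 0.36. For *Mafa* it did so in 3 of 10 fits, with log2 fold changes from 0.24 to 0.48, and for *Etv4* in 5 of 10 fits, with log2 fold changes from -0.23 to -0.14. Direction was kept in all 30 of these fits. The study picked *Shox2* from these libraries and each fit reuses most of them, so its 10 of 10 is no independent evidence. With DESeq2's normal prior, which shrinks fold changes by construction, the log2 fold change was 0.18 for *Shox2*, 0.10 for *Mafa* and -0.11 for *Etv4*. Which library was left out decided on which side of 0.05 *Mafa* and *Etv4* lay.

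**Figure D5:**
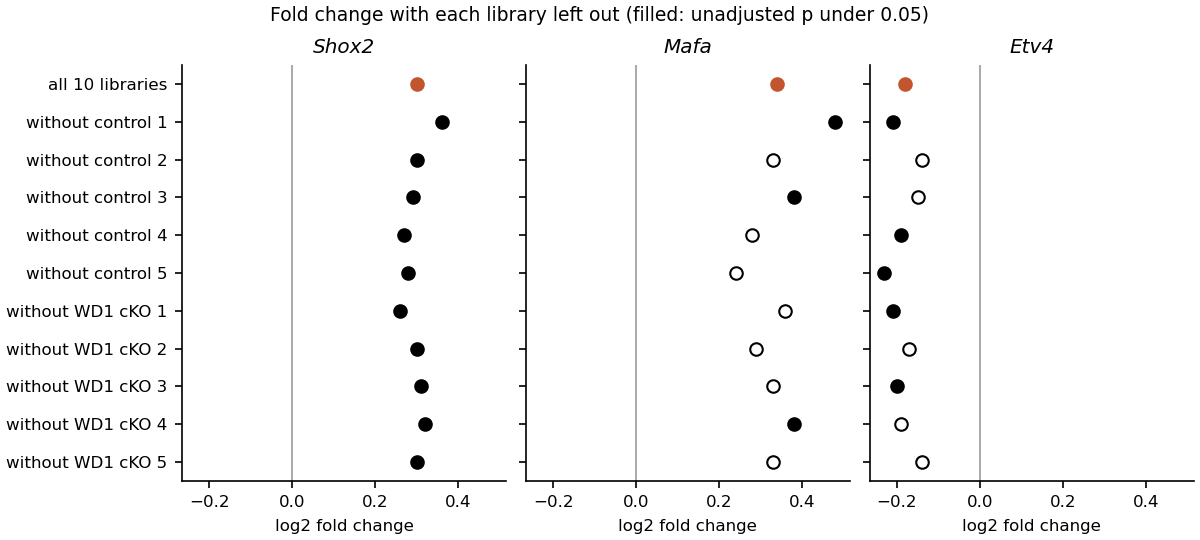
Log2 fold change of *Shox2*, *Mafa* and *Etv4* (horizontal axes) in edgeR fits with all 10 libraries (orange) and with each library left out (black). Filled points have an unadjusted p-value under 0.05, which holds in all 10 fits for *Shox2*, in 3 for *Mafa* and in 5 for *Etv4*. The study picked *Shox2* from these libraries.

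For each factor the genes whose deviations from the group means were most like its own were found across the 10 libraries, among 10774 genes with a mean of at least 10 CPM. They were chosen for their correlation, so no p-value is given, and all genes share the depth and tissue makeup of each library. *Mafa* was closest to *Glrx5* (Pearson's r = 0.987), a mitochondrial iron-sulphur protein needed for haem synthesis, and *Ucp2* (r = 0.959). *Maf* was closest to *Nnat* (r = 0.976) and *Idh2* (r = 0.974), *Runx1* to *Atxn7l3b* (r = 0.974) and *4931428F04Rik* (r = 0.973), and *Runx3* to *Pdp1* (r = 0.984) and *0610010F05Rik* (r = 0.948). *Shox2* was closest to *Capza1* (r = 0.947) and *Iws1* (r = 0.944), which fell to 0.760 and 0.785 without the 2 libraries farthest from the median of *Shox2*. *Etv1* was closest to *Lhfpl1* (r = 0.986) and *Cdh12* (r = 0.979), and the neurotrophin gene *Ntf3* was the fifth (r = 0.960, and 0.885 without control replicate 3). *Etv4* was closest to *Rreb1* (r = 0.928) and *Serpine2* (r = 0.916), *Etv5* to *Tmem18* (r = 0.956) and *Wnk1* (r = 0.946), and *Cbfb* to *Rnf181* (r = 0.946) and *Cntn5* (r = 0.938).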

How the data were processed

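The authors prepared stranded mRNA libraries from DRG, aligned reads with STAR 2.7.8a to GRCm39 and deposited raw counts per gene from featureCounts 2.0.1, after base calling with bcl2fastq 2.20.0.422 (versions from the submitters' processing notes). Strand setting and handling of multi-mapped reads are not given in the sources used here. Pairs of libraries of one group differed by more than sampling noise, and each was counted as 1 replicate.

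The 9 factors and the gene lists were chosen with earlier results of these data known, and some genes of the lists are not reported here and were left out of their counts and medians. Symbols were matched to 52081 of 55414 identifiers. Coordinates in GRCm39 follow the study's annotation, and the GENCODE annotation of GRCm38 was used for chromosomes, exon lengths and overlaps. Counts were analysed with edgeR 4.0.16 in R 4.3.3: TMM scaling, a filter of 10 counts or more in 5 or more libraries (17490 genes left), the quasi-likelihood test without covariates, and Benjamini-Hochberg adjustment. CPM values use TMM-scaled library sizes. Deviations are on log2 CPM (prior count 2). The scripts were tested on simulated data. Named in each list other than the cell markers are genes with an adjusted p-value under 0.05 or past the study's cut-off, otherwise the 3 with the smallest p-values, and genes named beside these were chosen after their values were seen. The fit was repeated with size factors from DESeq2, without the filter, with a minimum mean count of 100, with a block for the replicate number, with *Xist* as covariate, with each library left out, and with the Wald test of DESeq2 1.42.0 (also under a normal prior).

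Marker lists other than those in the text gave these medians of the log2 fold change: endothelium 0.025, connective tissue 0.106 and muscle -0.489, with 0, 1 and 0 genes of 5 each at an unadjusted p-value under 0.05 in edgeR, against 4.50% of all genes.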

Additional observations from a re-analysis of the deposited data

Results flagged for a closer look

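*Cbfb* in *WD1* cKO replicate 5 was at 243 CPM, while the other 4 *WD1* cKO libraries lay between 220 and 225 CPM. Its gap to the nearest library, divided by the range of the group, was 0.749, above the critical value of 0.71 for 5 samples. The 9 factors in 2 genotypes gave 18 such comparisons, of which 1 exceeded the critical value, where 0.9 are expected by chance.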

How the results depend on the processing

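No factor had an adjusted p-value under 0.05 in any of the 17 alternative fits (0 of 9 in each), in which 1 to 6 factors and 3.59% to 7.10% of all genes tested had an unadjusted p-value under 0.05. Of 153 alternative fold changes of single factors 150 kept their direction, and the 3 that reversed were those of *Etv5* without control replicate 1, control replicate 2 or *WD1* cKO replicate 2, over a range of -0.01 to 0.06 with one library left out. The number of factors past the study's cut-off was 1 in the 7 other alternatives and 1 to 2 with one library left out, the second being *Mafa* without control replicate 1. The number with an unadjusted p-value under 0.05 was 1 to 3 with one library left out, against 3 with all libraries, and it was 1, *Shox2*, without control replicate 2, *WD1* cKO replicate 2 or *WD1* cKO replicate 5. The median log2 fold change of the 9 factors ranged from 0.026 to 0.08 with one library left out and from 0.045 to 0.065 in the other alternatives.

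With the replicate number as a block, 6 factors had an unadjusted p-value under 0.05 (*Maf*, *Mafa*, *Shox2*, *Runx1*, *Etv1* and *Etv4*), against 3 without it, and 0 had an adjusted p-value under 0.05. The share of all genes with an unadjusted p-value under 0.05 was 7.10% with the block and 4.50% without it. The unadjusted edgeR p-values that passed 0.05 under the block were 0.011 for *Maf*, 0.0442 for *Runx1* and 0.0468 for *Etv1*, against 0.173, 0.424 and 0.162 without it. The labels do not say that a number marks a shared litter or day. Same-numbered libraries deviated together with correlations of 0.415, 0.0543, 0.335, 0.423 and 0.443 for numbers 1 to 5 over the 2000 most variable genes, and 8 of 10 libraries were closest to their own number, which is a hint from the data and not from the design. Number 2 fell short of a correlation of 0.1, and the numbers were not taken to pair the samples. Libraries numbered 4 and 5 nonetheless stood apart from numbers 1 to 3 in both groups. Their erythroid sums were 149 and 176 CPM in control and 222 and 174 CPM in *WD1* cKO embryos. Numbers 1 to 3 had 988 to 2390 CPM in control and 465 to 1050 CPM in *WD1* cKO embryos. The main fit does not take this split into account.

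*Mafa*, *Shox2* and *Runx3* rested on the fewest reads, from 178 counts per library. The intervals of *Mafa* and *Etv1* leave room for differences of up to 0.67 and 0.38 on the log2 scale. Reads of *Shox2* and *Rsrc1* on opposite strands may not be separated.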

Other observations

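Relatives of the 9 factors were measured in the same libraries. Of all genes 4.50% had an unadjusted p-value under 0.05 in edgeR. Of 16 tested Maf, Runx and ETS genes outside the PEA3 group, 0 were higher and 0 lower at this threshold. Their log2 fold changes lay between -0.04 and 0.12. The smallest p-values were those of *Maff* (0.12, edgeR p-value 0.170, adjusted 1.00), *Gabpa* (0.06, edgeR p-value 0.274, adjusted 1.00) and *Ets1* (0.06, edgeR p-value 0.301, adjusted 1.00). *Runx2*, the Runx gene of bone, was at 4.21 ± 0.868 CPM (SD, n = 5) in control and 4.27 ± 1.20 CPM (SD, n = 5) in *WD1* cKO embryos. Among 7 corepressors that bind Runx proteins or their fusions, from the Groucho and ETO families, 0 had an unadjusted p-value under 0.05, and *Tle1* came closest at a log2 fold change of 0.08 (edgeR p-value 0.0582, adjusted 1.00), followed by *Tle4* (-0.07) and *Tle3* (-0.10).

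Deviations from the group means were compared between the 9 factors, over 36 pairs and the 10 libraries, as a description. *Maf* and *Runx1* were the most alike (Pearson's r = 0.865, Spearman's rho = 0.697), both lowest in libraries numbered 4 and 5. *Runx3* and *Etv5* (Pearson's r = -0.769, Spearman's rho = -0.782) and *Shox2* and *Etv5* (Pearson's r = -0.762, Spearman's rho = -0.830) were the most opposed. In all, 20 pairs had a positive and 16 a negative correlation.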
